A study of Mus musculus with 11 samples.

Results

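The expression of 49 named cell cycle genes, 21 that act in S phase and 28 that act in mitosis, was followed through 4 sorted populations of mouse back skin epidermis. The genes were given as a list of names, drawn up with earlier results of these data known. All 49 were found among the 55536 Ensembl gene IDs of the files, and all 49 passed the filter on low counts, which left 20307 genes to test. RNA of sorted cells was sequenced in 11 libraries from male CD4Cre R26-tdT mice on a C57Bl6/N background. In these mice the Cd4 promoter drives Cre, and Cre switches on the red reporter tdT permanently, so that tdT+ cells are cells with a history of Cd4 promoter activity, T cells included. Every group carried both the Cre and the reporter. Cells bearing CD49f (integrin α6) and CD34, both present on hair follicle stem cells, were sorted by SCA-1 and by tdT. The groups were tdT+ bulge (CD49f+CD34+ without SCA-1, 3 libraries), tdTneg bulge (3 libraries), tdT+ SCA-1+ (CD49f+CD34+SCA-1+, 3 libraries) and tdTneg SCA-1+ (2 libraries). Each library pooled the cells of 2 mice, aged 29 weeks for replicate 1 and 32 weeks for replicates 2 and 3.

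Cells copy their DNA in S phase and separate the copies in mitosis, and the genes for the tasks of each phase are largely switched on together. The S-phase genes are classical targets of E2F factors and rise before replication, whereas most mitotic genes are held silent in resting cells by the DREAM complex at CHR elements and are switched on later by the MuvB complex with B-MYB and FOXM1. In resting back skin the bulge holds mostly quiescent follicle stem cells, and dividing cells of the interfollicular epidermis (IFE) lie in its basal layer.

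Counts assigned to genes ran from 17409131 to 46542177 per library. Levels are given as CPM, counts per 1000000 counts on genes after TMM scaling of each library's total. The markers of the sort were met in part. Ly6a, which encodes SCA-1, was at 2.46 to 59.2 CPM in bulge and 153 to 294 CPM in SCA-1+ libraries, and Itga6, which encodes CD49f, was present in all libraries. Cd34 was at 468 to 1130.1 CPM in bulge, 320 to 383 CPM in tdTneg SCA-1+ and only 22.3 to 35.7 CPM in tdT+ SCA-1+ libraries, low for cells sorted as CD34+. All 8 bulge identity genes were called lower in SCA-1+ cells (6.79% of all genes were), and their summed level was 8115 to 15056 CPM in bulge and 3338 to 5429 CPM in SCA-1+ libraries. The files hold 1 row outside the Ensembl genes, which stood at 133 to 307 CPM in 5 of the 6 tdT+ libraries and at 2.54 to 4.89 CPM in the tdTneg libraries, without that scaling. In the library labelled tdT+ bulge replicate 2 it was 2.05 CPM, the level of the tdTneg libraries, so the medians between tdT+ and tdTneg bulge cells and the counts of called members between the populations are also given without that library, or as a range that includes its omission.

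The mitotic genes were higher in SCA-1+ than in bulge cells, 28 of 28 of them, by 1.94-fold at the median. Their log2 differences lay between 0.71 (Cenpe) and 1.23 (Prc1), with a median of 0.95, where the median over all genes tested was -0.09 and 44.1% of all genes were above 0. With a gene called at an adjusted p under 0.05 and a change of more than 2-fold (edgeR), 8 of the 28 were called higher, against 4.77% of all genes called higher and 11.6% called in either direction. Without a fold threshold 19 of the 28 passed, against 8.88% of all genes. With the replicate number as a block, Prc1 and Ube2c were called, and the calls of Ccnb1, Ccnb2, Cdc20, Cenpa, Nusap1 and Ttk were lost. In a bulk sample, fewer cells in a phase and less RNA per cell cannot be told apart.

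Among the spindle genes, Prc1, which bundles the microtubules of the central spindle, rose most. It was at 18.7, 32.6 and 15.6 CPM in tdT+ bulge, 29.3, 19.2 and 25.7 CPM in tdTneg bulge, 65.02, 66.1 and 47.3 CPM in tdT+ SCA-1+ and 50.6 and 51.98 CPM in tdTneg SCA-1+ libraries. Its lowest SCA-1+ library stood above its highest bulge library. The difference was 1.23 ± 0.21 (SE, adjusted p = 0.00294) on the log2 scale, a 2.35-fold higher level, and Prc1 was the only mitotic gene called in 18 of the 18 fits made of this comparison. Prc1 lies within the span of Rccd1 on the opposite strand, and 11.08% of its exon bases overlap exons of that gene. The kit does not mark strand, so reads of that stretch cannot be told apart. Nusap1, a spindle and chromosome binding protein, was at 13.6, 17.7 and 4.96 CPM in tdT+ bulge, 17.9, 12.03 and 20.03 CPM in tdTneg bulge, 26.8, 46.8 and 19.9 CPM in tdT+ SCA-1+ and 29.6 and 29.4 CPM in tdTneg SCA-1+ libraries. The third tdT+ SCA-1+ library met the top of the bulge range, and the difference was 1.10 ± 0.33 (SE, adjusted p = 0.0446). Kif23, the kinesin that works with Prc1 in cytokinesis, passed the adjusted p but not the fold, at 0.88 ± 0.16 (SE, adjusted p = 0.00512). Over the 6 spindle genes the median difference was 0.93.

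The regulators of entry into and exit from mitosis were higher as well. Cdc20, which activates the anaphase promoting complex, was at 19.2, 19.4 and 15.5 CPM in tdT+ bulge, 20.4, 19.2 and 21.8 CPM in tdTneg bulge, 33.5, 55.9 and 26.5 CPM in tdT+ SCA-1+ and 31.5 and 48.00 CPM in tdTneg SCA-1+ libraries. No bulge library reached the lowest SCA-1+ library, and the difference was 1.03 ± 0.20 (SE, adjusted p = 0.00708). Ube2c, the ubiquitin conjugating enzyme of that complex, was at 7.84, 13.4 and 6.01 CPM in tdT+ bulge, 12.05, 11.3 and 12.3 CPM in tdTneg bulge, 17.3, 41.5 and 13.4 CPM in tdT+ SCA-1+ and 20.5 and 23.96 CPM in tdTneg SCA-1+ libraries. The difference was 1.15 ± 0.31 (SE, adjusted p = 0.0303), with the lowest SCA-1+ library just above the highest bulge library. Of its exon bases, 22.77% overlap Tnnc2 on the other strand. Ccnb1, cyclin B1, was at 4.12, 5.36 and 4.85 CPM in tdT+ bulge, 5.91, 5.05 and 6.98 CPM in tdTneg bulge, 8.39, 16.2 and 9.14 CPM in tdT+ SCA-1+ and 9.14 and 11.4 CPM in tdTneg SCA-1+ libraries, a difference of 1.01 ± 0.24 (SE, adjusted p = 0.0169). Ccnb1 has near-identical copies over 51.95% of its transcript bases, so its counts depend on how shared reads were handled. Ccnb2 was called as well, at 1.01 ± 0.31 (SE, adjusted p = 0.049). Cdk1, the partner kinase of cyclin B, was at 11.1, 17.9 and 9.75 CPM in tdT+ bulge, 18.7, 15.3 and 22.1 CPM in tdTneg bulge, 23.2, 49.9 and 11.8 CPM in tdT+ SCA-1+ and 23.2 and 31.4 CPM in tdTneg SCA-1+ libraries. The populations overlapped, and its difference of 0.84 ± 0.34 (SE, adjusted p = 0.11) did not pass. Over the 7 genes of this role 4 were called, with a median of 1.01.

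The remaining mitotic roles gave medians between 0.78 and 0.94. Mki67, the proliferation antigen that coats mitotic chromosomes, was at 121, 134 and 82.00 CPM in tdT+ bulge, 146, 96.02 and 127 CPM in tdTneg bulge, 235, 298 and 139 CPM in tdT+ SCA-1+ and 205 and 257 CPM in tdTneg SCA-1+ libraries. Only the third tdT+ SCA-1+ library overlapped with the bulge libraries, and the difference of 0.95 ± 0.21 (SE, adjusted p = 0.013) passed the test with a fold just under the threshold. Top2a, the topoisomerase that untangles chromosomes, was at 63.5, 96.6 and 55.7 CPM in tdT+ bulge, 111, 76.9 and 100.2 CPM in tdTneg bulge, 159, 201 and 93.6 CPM in tdT+ SCA-1+ and 141 and 192 CPM in tdTneg SCA-1+ libraries. Here too the third tdT+ SCA-1+ library lay within the bulge range, with a difference of 0.93 ± 0.22 (SE, adjusted p = 0.0169).

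Of the 8 mitotic kinases and chromosomal passengers, Ttk, the spindle checkpoint kinase, was called. It was at 11.96, 16.8 and 3.80 CPM in tdT+ bulge, 9.98, 6.42 and 7.05 CPM in tdTneg bulge, 17.1, 16.3 and 19.7 CPM in tdT+ SCA-1+ and 26.3 and 17.8 CPM in tdTneg SCA-1+ libraries, and the second tdT+ bulge library was the only bulge library that reached the SCA-1+ range. Its difference was 1.10 ± 0.33 (SE, adjusted p = 0.0437). The Aurora kinases Aurka and Aurkb, Plk1, Bub1, Bub1b, Cdca8 and Birc5 had log2 differences from 0.72 (Aurka) to 0.99 (Aurkb), and Cdca8, Aurkb and Plk1 passed the adjusted p without the fold. Cenpa, the histone variant of the centromere, was at 20.4, 23.2 and 13.3 CPM in tdT+ bulge, 23.5, 21.7 and 20.7 CPM in tdTneg bulge, 37.8, 70.5 and 29.6 CPM in tdT+ SCA-1+ and 31.5 and 43.2 CPM in tdTneg SCA-1+ libraries. All SCA-1+ libraries exceeded all bulge libraries, and the difference was 1.02 ± 0.24 (SE, adjusted p = 0.0157).

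Both transcription factors of the mitotic programme were higher too, with unequal error. Foxm1 was at 14.9, 18.6 and 14.4 CPM in tdT+ bulge, 23.9, 17.4 and 21.1 CPM in tdTneg bulge, 32.5, 39.8 and 25.6 CPM in tdT+ SCA-1+ and 28.6 and 48.1 CPM in tdTneg SCA-1+ libraries. Every SCA-1+ library was above every bulge library, with a difference of 0.96 ± 0.18 (SE, adjusted p = 0.00617). Mybl2, which encodes B-MYB, was low, at 4.44, 3.48 and 0.882 CPM in tdT+ bulge, 5.33, 5.13 and 4.20 CPM in tdTneg bulge, 4.26, 6.93 and 4.49 CPM in tdT+ SCA-1+ and 6.08 and 10.6 CPM in tdTneg SCA-1+ libraries. Its libraries overlapped between the populations, and the difference of 0.80 ± 0.40 (SE, adjusted p = 0.185) did not pass.

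**Figure D1:**
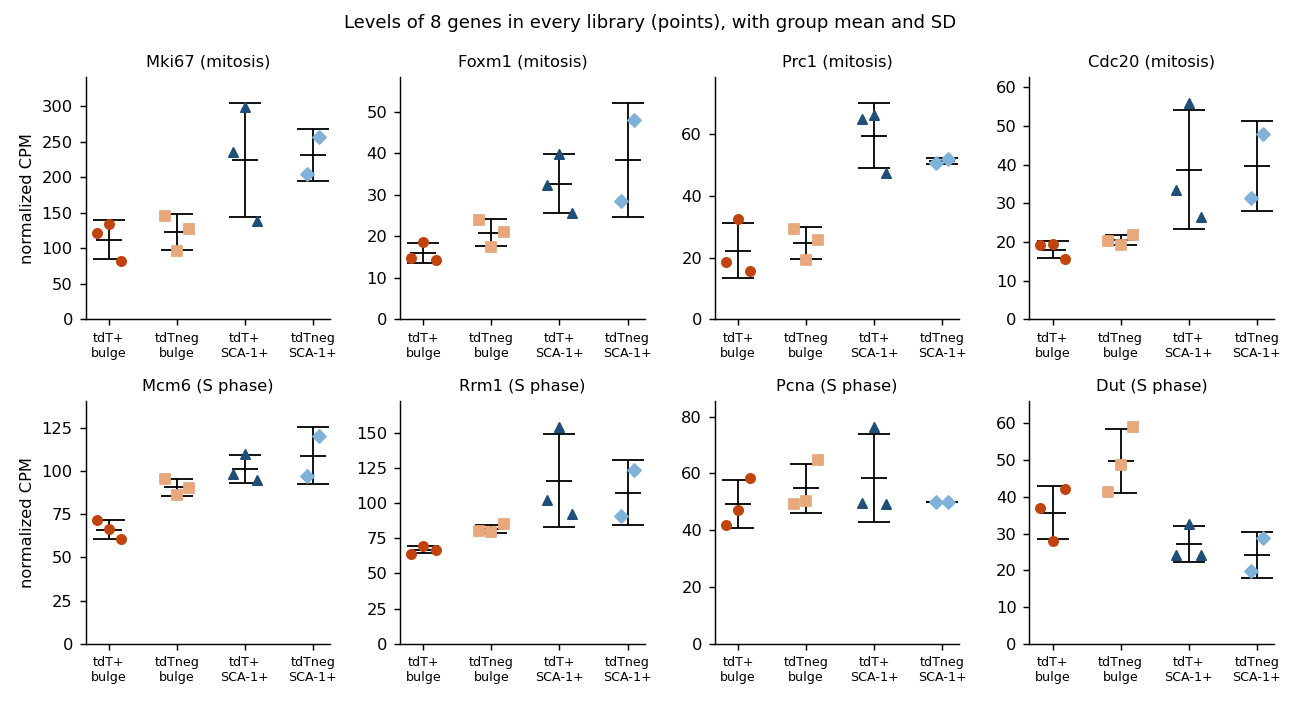
Levels in CPM (vertical axis, from 0) of Mki67, Foxm1, Prc1, Cdc20, Mcm6, Rrm1, Pcna and Dut in the 11 libraries, with 1 point per library in each of the 4 sorted groups and the mean of each group as a bar. Prc1 sat at 15.6 to 32.6 CPM in bulge and at 47.3 to 66.1 CPM in SCA-1+ libraries, and Dut at 27.96 to 58.9 CPM in bulge and 19.8 to 32.7 CPM in SCA-1+ libraries.

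The promoters of the mitotic genes shared elements that the choice of names did not use. Sequences are those of RefSeq on GRCm38.p6, 250 bases before to 50 bases after each transcript start, which were found for 41 of the 49 genes. None was given for Ccne2, Kif20a, Ccna2, Aurkb, Tpx2, Foxm1, Gins2 and Mcm4. The CHR element TTTGAA was found on either strand in 17 of 23 mitotic genes (73.9%), in 3 of 18 S-phase genes (16.7%) and in 20.2% of all 27025 genes with a promoter. The CCAAT box was found in 87% of the mitotic genes, 55.6% of the S-phase genes and 41.1% of all genes. A CHR element or its variant TTCGAA together with a CCAAT box stood in 78.3% of the mitotic genes against 8.61% of all genes. Among the called mitotic genes, Nusap1 had none of these elements, and Ccnb1 had 2 CCAAT boxes without a CHR element or its variant. A match is a description of the letters and no measured binding. Shown are 3 mitotic genes that were called, with the CHR element and the CCAAT box, in either orientation, in capitals: Prc1 (chr7:80294201-80294500, plus strand, the first of its 2 listed starts), Cdc20 (chr4:118437294-118437593, minus strand) and Cenpa (chr5:30666636-30666935, plus strand).
Prc1: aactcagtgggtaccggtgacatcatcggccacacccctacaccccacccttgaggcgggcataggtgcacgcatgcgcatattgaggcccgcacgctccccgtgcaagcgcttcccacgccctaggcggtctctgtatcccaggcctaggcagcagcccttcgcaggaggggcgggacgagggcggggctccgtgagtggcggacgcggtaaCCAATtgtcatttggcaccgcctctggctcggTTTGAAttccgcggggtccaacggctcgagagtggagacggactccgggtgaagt
Cdc20: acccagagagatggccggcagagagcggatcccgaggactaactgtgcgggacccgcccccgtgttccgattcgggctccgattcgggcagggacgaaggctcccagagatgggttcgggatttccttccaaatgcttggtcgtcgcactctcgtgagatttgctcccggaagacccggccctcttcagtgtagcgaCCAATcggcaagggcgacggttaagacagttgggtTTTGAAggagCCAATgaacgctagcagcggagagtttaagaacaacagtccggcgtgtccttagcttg
Cenpa: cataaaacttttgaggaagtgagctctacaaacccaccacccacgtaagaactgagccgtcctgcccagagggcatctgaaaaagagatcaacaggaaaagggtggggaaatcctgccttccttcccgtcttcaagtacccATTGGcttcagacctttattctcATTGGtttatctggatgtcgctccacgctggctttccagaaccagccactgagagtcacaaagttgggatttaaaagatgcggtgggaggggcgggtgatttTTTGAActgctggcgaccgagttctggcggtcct

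The S-phase genes differed less between the populations. Of 21 genes, 18 were higher in SCA-1+ cells, with a median log2 difference of 0.44 and a range from -0.72 (Dut) to 0.86 (Fen1). With each library left out the median ran from 0.28, without tdTneg SCA-1+ replicate 2, to 0.54 and the number higher from 15 to 20. None was called by edgeR at an adjusted p under 0.05 and more than 2-fold, where edgeR called 11.6% of all genes, and none was called by DESeq2. At an unadjusted p under 0.05 there were 8, of which 7 were higher, against 14.7% of all genes higher and 19.7% lower. Without the fold threshold 4 of the 21 passed, Mcm6, Rrm1 and Mcm2 as higher and Dut as lower, a share of the size seen over all genes (19.3%). For 14 of the 21 the 95% interval lay within a 2-fold change in either direction, as for 40% of all genes. All 28 mitotic differences exceeded those of the S-phase genes other than Fen1, which had 0 to 60 counts per library.

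Mcm6, a subunit of the MCM ring that unwinds DNA at the fork, was at 71.3, 66.2 and 60.6 CPM in tdT+ bulge, 95.3, 85.8 and 90.1 CPM in tdTneg bulge, 98.4, 109.9 and 94.8 CPM in tdT+ SCA-1+ and 97.2 and 120.3 CPM in tdTneg SCA-1+ libraries. The SCA-1+ libraries began at the top of the bulge range, and the difference was small with a small error, 0.44 ± 0.093 (SE, adjusted p = 0.00959), a 1.36-fold higher level. Mcm2 was at 36.8, 34.7 and 37.4 CPM in tdT+ bulge, 51.02, 54.6 and 48.9 CPM in tdTneg bulge, 58.8, 77.00 and 49.2 CPM in tdT+ SCA-1+ and 48.4 and 71.9 CPM in tdTneg SCA-1+ libraries, with the tdTneg bulge libraries level with the lower SCA-1+ libraries and a difference of 0.49 ± 0.14 (SE, adjusted p = 0.0369). Mcm5 was at 36.8, 34.4 and 39.4 CPM in tdT+ bulge, 44.7, 53.4 and 43.1 CPM in tdTneg bulge, 52.7, 79.8 and 46.04 CPM in tdT+ SCA-1+ and 46.7 and 73.97 CPM in tdTneg SCA-1+ libraries, and its difference of 0.52 ± 0.17 (SE, adjusted p = 0.0575) did not pass. Over the 6 MCM subunits the differences ran from -0.06 (Mcm7) to 0.65 (Mcm3), with a median of 0.47. Mcm7 has near-identical copies over 81.16% of its transcript bases and is uncertain.

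The genes of nucleotide supply went both ways. Rrm1, the large subunit of ribonucleotide reductase, was at 64.1, 69.3 and 67.01 CPM in tdT+ bulge, 80.4, 79.3 and 85.04 CPM in tdTneg bulge, 102, 154 and 92.03 CPM in tdT+ SCA-1+ and 91.1 and 124 CPM in tdTneg SCA-1+ libraries. It was the only S-phase gene with every SCA-1+ library above every bulge library, at 0.60 ± 0.14 (SE, adjusted p = 0.0175), where 5.1% of all genes were separated in this direction. Rrm2, the small subunit of the same enzyme, was at 36.1, 26.2 and 23.6 CPM in tdT+ bulge, 50.3, 41.7 and 42.9 CPM in tdTneg bulge, 24.6, 44.6 and 26.2 CPM in tdT+ SCA-1+ and 28.6 and 50.6 CPM in tdTneg SCA-1+ libraries. These libraries overlapped broadly, with a difference of -0.017 ± 0.22 (SE, adjusted p = 0.971) and a 95% interval from -0.50 to 0.46. Dut, the dUTPase that keeps uracil out of DNA, was at 36.9, 27.96 and 42.3 CPM in tdT+ bulge, 41.4, 48.8 and 58.9 CPM in tdTneg bulge, 24.3, 32.7 and 24.2 CPM in tdT+ SCA-1+ and 19.8 and 28.7 CPM in tdTneg SCA-1+ libraries. It was the one member that passed as lower, -0.72 ± 0.17 (SE, adjusted p = 0.0177), a 1.65-fold lower level, and the second library of each SCA-1+ group lay within the bulge range.

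The sliding clamp, the E cyclins and E2f1 did not pass the test. Pcna, which encodes the clamp, was at 41.8, 47.2 and 58.4 CPM in tdT+ bulge, 49.1, 50.4 and 64.7 CPM in tdTneg bulge, 49.5, 76.2 and 49.1 CPM in tdT+ SCA-1+ and 50.1 and 50.1 CPM in tdTneg SCA-1+ libraries. The groups overlapped, and the difference was 0.058 ± 0.15 (SE, adjusted p = 0.831) with a 95% interval from -0.28 to 0.40. The Pcna transcript is matched by a pseudogene over 51.45% of its bases. Ccne1, cyclin E1, was low and spread widely, at 1.59, 2.30 and 1.49 CPM in tdT+ bulge, 3.18, 5.05 and 3.44 CPM in tdTneg bulge, 1.998, 3.12 and 0.619 CPM in tdT+ SCA-1+ and 2.25 and 7.498 CPM in tdTneg SCA-1+ libraries, with a difference of 0.21 ± 0.47 (SE, adjusted p = 0.798). Ccne2 was at 5.53, 6.11 and 5.68 CPM in tdT+ bulge, 7.77, 3.96 and 9.34 CPM in tdTneg bulge, 6.02, 14.9 and 9.08 CPM in tdT+ SCA-1+ and 6.96 and 6.07 CPM in tdTneg SCA-1+ libraries, and its difference was 0.34 ± 0.30 (SE, adjusted p = 0.463). E2f1, an activator of S-phase genes, was at 12.5, 8.25 and 8.21 CPM in tdT+ bulge, 12.05, 11.9 and 12.1 CPM in tdTneg bulge, 16.1, 17.4 and 11.7 CPM in tdT+ SCA-1+ and 10.4 and 17.1 CPM in tdTneg SCA-1+ libraries, with a difference of 0.42 ± 0.21 (SE, adjusted p = 0.185). Over Cdc6 and Cdt1, which license origins, and Cdc45 and Gins2, which activate the helicase, the median was 0.26.

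**Figure D2:**
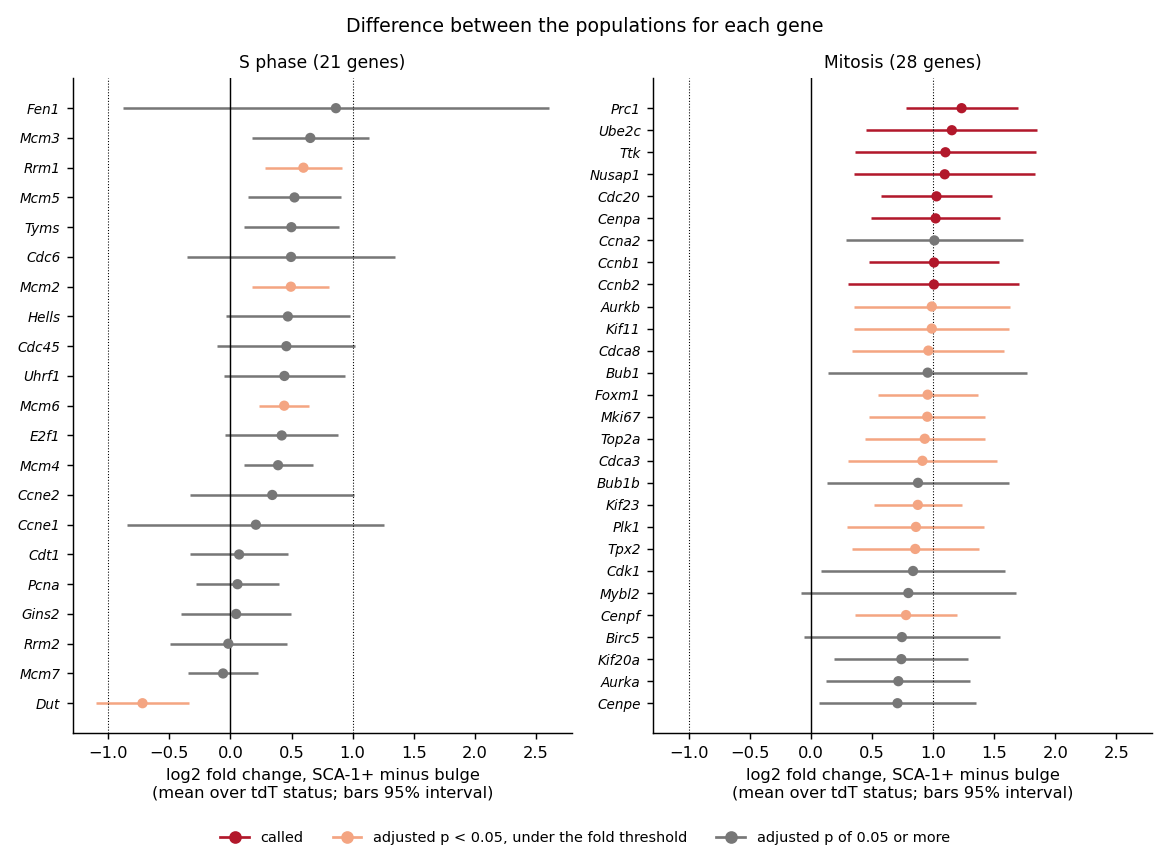
Log2 difference between SCA-1+ and bulge cells, as the mean over tdT status (horizontal axis), for each of the 49 genes, with bars for the 95% interval and the S-phase and mitotic genes set apart. All 28 mitotic genes lie between 0.71 and 1.23, and the S-phase genes between -0.72 and 0.86.

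An E2F element, searched as TTTGGCGC, TTTCCCGC, TTTCGCGC or TTTGCCGC on either strand, stood in 8 of 18 S-phase promoters (44.4%), in 1 of 23 mitotic promoters (4.35%) and in 2.6% of all genes. Shown are the S-phase gene with the smallest adjusted p, Mcm6 (chr1:128359656-128359955, minus strand), which holds 3 matches to the E2F element, some of them overlapping, and 2 CCAAT boxes, and Dut (chr2:125247265-125247564, plus strand), the gene that passed as lower. The Dut window holds none of these elements and lies inside the gene as Ensembl has it, which starts at 125247190. Capitals mark the matches.
Mcm6: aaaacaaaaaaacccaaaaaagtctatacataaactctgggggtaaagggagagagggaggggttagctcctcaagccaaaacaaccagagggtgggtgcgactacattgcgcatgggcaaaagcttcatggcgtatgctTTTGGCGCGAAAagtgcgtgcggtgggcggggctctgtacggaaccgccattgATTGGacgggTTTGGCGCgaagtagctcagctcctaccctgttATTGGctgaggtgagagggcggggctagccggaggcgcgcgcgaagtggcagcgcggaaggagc
Dut: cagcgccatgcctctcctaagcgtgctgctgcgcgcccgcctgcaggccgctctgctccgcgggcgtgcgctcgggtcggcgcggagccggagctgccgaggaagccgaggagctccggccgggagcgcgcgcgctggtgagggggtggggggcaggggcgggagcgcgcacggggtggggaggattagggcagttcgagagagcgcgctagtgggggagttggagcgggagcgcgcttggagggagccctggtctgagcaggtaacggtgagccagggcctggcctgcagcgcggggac

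Levels can be compared between genes only with a correction for length. The length used was that of all annotated exon bases of a gene, 11.012 kb for Rrm1. It can exceed the length of any 1 transcript of the gene, which lowers the value. The order of the genes therefore depends in part on the annotation. On the scale of CPM per kilobase of exon, averaged over the 11 libraries, Pcna was highest at 22.2, followed by Mcm6 at 19.3, Mcm4 at 18.9 and Mki67 at 16.6. The order differed between groups. In tdTneg SCA-1+ cells Pcna, at 20.9, was below Mcm6 at 23.3, Mki67 at 22.9, Mcm4 at 22.7 and Cdc20 at 21.3, and in tdTneg bulge cells Mki67, at 12.2, was below Dut at 20.6 and Rrm2 at 16.2. The lowest over all libraries were Fen1 at 0.493, Cdc6 at 0.823, Mybl2 at 1.09 and Ccne1 at 1.11. Of Fen1, 84.19% of exon bases overlap genes on the opposite strand, and of Gins2 67.32%, so both are uncertain.

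As a summary per library, scores were taken as the mean log2 CPM (prior count 2) over each list. The mitotic score was 3.68, 4.16 and 3.20 in tdT+ bulge, 4.19, 3.94 and 4.14 in tdTneg bulge, 4.70, 5.35 and 4.21 in tdT+ SCA-1+ and 4.64 and 5.05 in tdTneg SCA-1+ libraries. The highest bulge library thus lay just under the lowest SCA-1+ library. The S-phase score was 4.18, 4.01 and 3.84 in tdT+ bulge, 4.48, 4.43 and 4.53 in tdTneg bulge, 4.40, 4.99 and 4.20 in tdT+ SCA-1+ and 4.26 and 4.82 in tdTneg SCA-1+ libraries, and the populations overlapped. Among the libraries of 29-week-old mice the mitotic score was 3.68 to 4.19 in bulge and 4.64 to 4.70 in SCA-1+ cells, and at 32 weeks 3.20 to 4.16 and 4.21 to 5.35. The second tdT+ SCA-1+ library was the highest of all 11 for 24 of the 28 mitotic and 12 of the 21 S-phase genes. The third tdT+ bulge library was the lowest for 22 and 9 of them.

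**Figure D3:**
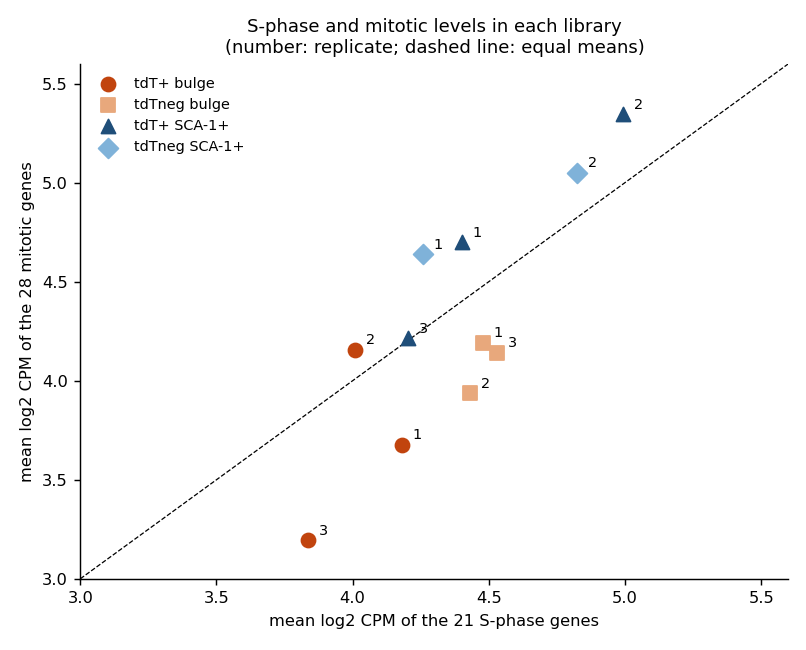
Mean log2 CPM over the S-phase genes and over the mitotic genes (vertical axis) in each of the 11 libraries, by sorted group. Mitotic scores run from 3.20 to 4.19 in bulge and from 4.21 to 5.35 in SCA-1+ libraries, and S-phase scores overlap.

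The counts of calls depended on single libraries while the direction did not. Each fit made of this comparison, with other tools, filters or 1 library less, kept all 28 mitotic genes higher, with medians from 0.71 to 1.06. Without the library labelled tdT+ bulge replicate 2, 18 mitotic genes were called, and without tdT+ SCA-1+ replicate 3 there were 17. Without tdT+ SCA-1+ replicate 2, or without tdTneg SCA-1+ replicate 2, only Prc1 was called. The count was 3 without tdT+ bulge replicate 1, tdT+ bulge replicate 3 or tdTneg bulge replicate 2, 4 without tdTneg bulge replicate 3 and 5 without tdT+ SCA-1+ replicate 1. With the replicate block 15 mitotic genes passed the adjusted p and the median was 0.83.

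Markers of other cell types moved with the same comparison. Of 9 T cell genes, 8 were called higher in SCA-1+ cells. Their summed level was 28.1 to 111 CPM in bulge, 490 to 1183 CPM in tdT+ SCA-1+ and 177 to 187 CPM in tdTneg SCA-1+ libraries, and Cd28 was at 0 in 5 of the 11 libraries. Of 6 Langerhans cell genes, 5 were called higher, with sums of 16.4 to 416 CPM in bulge and 287 to 777 CPM in SCA-1+ libraries. Of 6 endothelial genes none was called by edgeR or DESeq2 and 1 had an unadjusted p under 0.05, and their sum was 1535 and 1692 CPM in the tdTneg SCA-1+ libraries and at most 403 CPM elsewhere. Of 5 suprabasal IFE genes 3 were called higher, with sums of 829 to 4432 CPM in bulge and 3471 to 10668 CPM in SCA-1+ libraries. Of 6 basal IFE genes 3 were called higher, with sums of 16246 to 24341 CPM and 22463 to 37487 CPM. Genes of the growing hair matrix summed to 572 and 576 CPM in tdTneg SCA-1+ libraries, 301 CPM in the first tdT+ SCA-1+ library and 29.8 to 98.4 CPM in the others. Of the 7 tested, edgeR called 2 higher and 1 lower, DESeq2 called 0 higher and 1 lower, and Krt35 and Krt31 were at 0 in the second tdT+ SCA-1+ library. Melanocyte genes summed to 23.9 to 63.9 CPM in bulge and 6.19 to 34.5 CPM in SCA-1+ libraries, with 2 of 5 called lower. Fibroblast genes (26.9 to 478 CPM) and dissociation response genes (8350 to 14261 CPM) had 0 calls by edgeR and by DESeq2, and 0 of either had an unadjusted p under 0.05. The part of these cells in the differences of the cell cycle genes was not tested.

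Within tdT+ cells alone, where 2.91% of all genes were called higher and 8.45% in either direction, all 28 mitotic genes were higher in SCA-1+ cells, with a median of 1.09, and 7 were called. Prc1 differed by 1.42 ± 0.28 (SE, adjusted p = 0.0105), Cenpa by 1.28 ± 0.32 (SE, adjusted p = 0.0303), Ccnb1 by 1.23 ± 0.32 (SE, adjusted p = 0.0353) and Cdc20 by 1.10 ± 0.28 (SE, adjusted p = 0.0287). Cenpf, a kinetochore protein, was at 21.2, 29.6 and 29.5 CPM in tdT+ bulge, 36.2, 24.9 and 34.5 CPM in tdTneg bulge, 54.3, 75.98 and 39.3 CPM in tdT+ SCA-1+ and 45.8 and 43.1 CPM in tdTneg SCA-1+ libraries, and within tdT+ cells its libraries did not overlap, with a difference of 1.08 ± 0.25 (SE, adjusted p = 0.0217). Top2a and Foxm1 were called as well. For 15 of the 28 all tdT+ SCA-1+ libraries lay above all tdT+ bulge libraries, as for 15.4% of all genes. Prc1 was called in 19 of 19 fits of this comparison. The count of 7 became 8 without the library labelled tdT+ bulge replicate 2, 15 without tdT+ SCA-1+ replicate 3, 2 without tdT+ bulge replicate 1 or 3, and 1 without tdT+ SCA-1+ replicate 2, where the median was 0.71. With the replicate block it was 12.

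The S-phase genes were also mostly higher within tdT+ cells, 20 of 21, with a median of 0.64, where 46.5% of all genes were above 0. Without tdT+ SCA-1+ replicate 2 the median was 0.37 with 16 of 21 higher, the lowest with 1 library left out, and the highest was 0.80. None was called by edgeR or DESeq2, and 9 were higher at an unadjusted p under 0.05 (13.4% of all genes). Without a fold threshold Mcm6 with 0.61 ± 0.12 (SE, adjusted p = 0.0119), Rrm1 with 0.80 ± 0.19 (SE, adjusted p = 0.0247) and Mcm2 with 0.77 ± 0.19 (SE, adjusted p = 0.0283) passed, where 5.66% of all genes passed as higher. Libraries of the 2 populations did not overlap for 6 of the 21, Mcm2, Mcm4, Mcm5, Mcm6, Rrm1 and Tyms, where 15.4% of all genes were separated upward.

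Within tdTneg cells, where 3.29% of all genes were called higher, 1.45% lower and 4.74% in all, the 28 mitotic genes were again all higher, with a median of 0.77. None was called by edgeR, 8 had an unadjusted p under 0.05 (10.7% of all genes were higher at that p) and DESeq2 called 3. The smallest adjusted p-values were those of Prc1 with 1.05 ± 0.30 (SE, adjusted p = 0.0751), Kif23 with 0.83 ± 0.24 (SE, adjusted p = 0.0768) and Foxm1 with 0.88 ± 0.27 (SE, adjusted p = 0.0942). For 27 of the 28, Ccna2 being the exception, both tdTneg SCA-1+ libraries lay above all tdTneg bulge libraries, as for 19.9% of all genes. Without the library labelled tdT+ bulge replicate 2, Prc1 was called. That library is in neither group compared here and enters through the filter, the scaling, the shared estimate of spread and the adjustment.

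In the same cells the S-phase genes divided, with 14 of 21 higher, where 41.5% of all genes were, and a median of 0.21. Without tdTneg SCA-1+ replicate 2 the median was -0.08 with 9 of 21 higher, without tdTneg SCA-1+ replicate 1 it was 0.40 with 17 higher, and with the replicate block it was 0.03, so that its sign depended on 1 library. Dut was called lower, at -1.04 ± 0.26 (SE, adjusted p = 0.0472), and both its tdTneg SCA-1+ libraries were under all tdTneg bulge libraries. That call was lost with the replicate block (adjusted p = 0.0803), with DESeq2 and with RLE size factors, and was made in 5 of 19 fits. Gins2, a helicase activator, was likewise lower in both tdTneg SCA-1+ libraries, and Mcm3, Mcm6, Rrm1 and Fen1 were higher in both, where 26.4% and 19.9% of all genes were separated downward and upward. Higher within tdT+ and within tdTneg cells were 28 of 28 mitotic and 14 of 21 S-phase genes, against 27.3% of all genes.

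**Figure D4:**
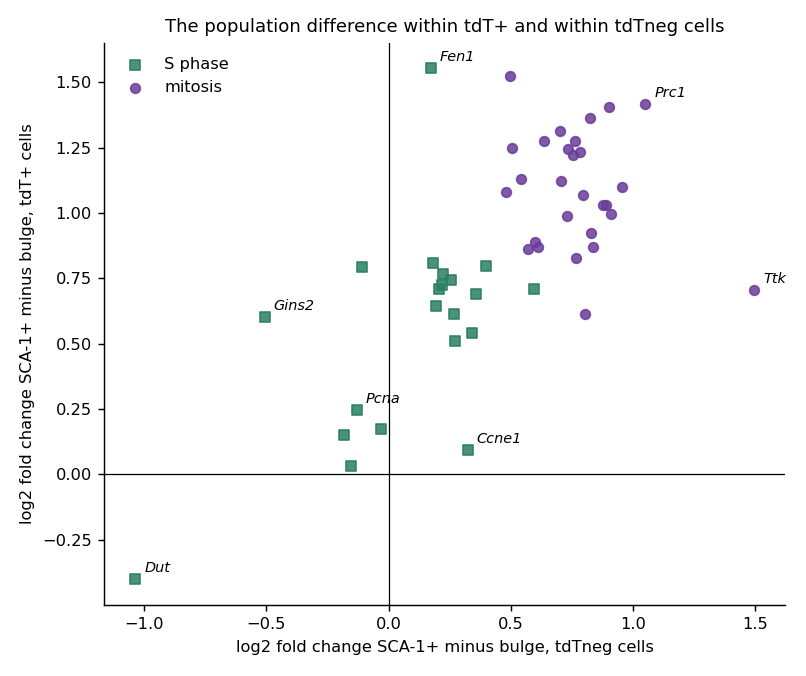
Log2 difference between SCA-1+ and bulge cells within tdT+ cells (vertical axis) against the same difference within tdTneg cells (horizontal axis), 1 point per gene, S-phase and mitotic genes in separate colours. All 28 mitotic genes lie above 0 on both axes, whereas Dut lies below 0 on both.

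Between tdT+ and tdTneg bulge cells, where 0.00985% of all genes were called (2 of 20307), no member was called by edgeR, DESeq2 or any other fit. All 21 S-phase genes were nonetheless lower in tdT+ cells, with a median log2 difference of -0.37. Over all genes the median was -0.03 and 47.3% were above 0. At an unadjusted p under 0.05 there were 3, against 3.86% of all genes lower. Mcm6 was at 71.3, 66.2 and 60.6 CPM in tdT+ bulge and 95.3, 85.8 and 90.1 CPM in tdTneg bulge libraries, with a difference of -0.45 ± 0.12 (SE, adjusted p = 0.333). Mcm2 was at 36.8, 34.7 and 37.4 CPM in tdT+ bulge and 51.02, 54.6 and 48.9 CPM in tdTneg bulge libraries, with a difference of -0.51 ± 0.19 (SE, adjusted p = 0.516), and Rrm2 at 36.1, 26.2 and 23.6 CPM in tdT+ bulge and 50.3, 41.7 and 42.9 CPM in tdTneg bulge libraries, with a difference of -0.65 ± 0.29 (SE, adjusted p = 0.589). In these 3 genes every tdT+ bulge library was below every tdTneg bulge library, as in 12 of the 21 S-phase genes and in 10.9% of all genes. The summed level of the S-phase genes was 528 to 580 CPM in tdT+ and 700.3 to 749 CPM in tdTneg bulge libraries. The 21 genes were lower in every fit made, with medians from -0.50 to -0.27, and without the library labelled tdT+ bulge replicate 2 the median was -0.33.

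Of the 28 mitotic genes, 25 were lower in tdT+ bulge cells, with a median of -0.36. None had an unadjusted p under 0.05 in edgeR, and 2 had tdT+ libraries all below the tdTneg libraries, a share under the 10.9% of all genes. The smallest p-values were those of Ccna2 with -0.87 ± 0.44 (SE, adjusted p = 0.637), Aurkb with -0.73 ± 0.39 (SE, adjusted p = 0.654) and Bub1b with -0.70 ± 0.45 (SE, adjusted p = 0.716). Mki67 differed by -0.13 ± 0.29 (SE, adjusted p = 0.919), with a 95% interval from -0.77 to 0.51. With each library left out the median of the mitotic genes ran from -0.59, without the library labelled tdT+ bulge replicate 2, to -0.20 with 7 genes higher, without tdT+ bulge replicate 3.

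Markers of other cells differed between the same libraries, with 0 of them called by edgeR. All 9 T cell genes were higher in tdT+ bulge cells, with a median of 3.28 and sums of 83.0 to 111 CPM against 28.1 to 43.7 CPM, and 6 had an unadjusted p under 0.05. All 5 suprabasal IFE genes were higher, with a median of 1.53 and sums of 1986 to 4432 CPM against 829 to 1978 CPM, and all 6 Langerhans cell genes, with a median of 1.82. Other lists were lower. Of the 8 bulge identity genes 7 were lower, with a median of -0.43. Of the 8 dissociation response genes 7 were lower, with a median of -0.38 and sums of 8350 to 14076 CPM against 12238 to 14261 CPM. All 5 melanocyte genes were lower, with a median of -0.76 and sums of 23.9 to 54.1 CPM against 58.4 to 63.9 CPM, and so were 5 of 6 basal IFE genes, with a median of -0.34. Of the 7 hair matrix genes tested 5 were lower, with a median of -0.45, and of the 6 fibroblast genes 4, with a median of -0.21. Without tdTneg bulge replicate 2 the medians of these 2 lists were -0.056 and 0.98. Without the library labelled tdT+ bulge replicate 2, which had the highest Langerhans and suprabasal sums of the bulge libraries, the medians were 3.02 for T cell genes, 8 of 9 higher, 1.21 for suprabasal IFE and 0.84 for Langerhans cell genes. They were then -0.39 for bulge identity, -0.23 for dissociation response, -0.48 for melanocyte and -0.32 for basal IFE genes, and -0.31 for hair matrix and 0.14 for fibroblast genes. The median of the 6 endothelial genes turned from 1.10 to -1.57 without it. Without tdT+ bulge replicate 3 the medians were -0.70 for bulge identity and -0.66 for dissociation response genes, and without tdT+ bulge replicate 1 they were -1.45 for melanocyte, -0.19 for basal IFE and -0.28 for bulge identity genes, the last also -0.28 without tdTneg bulge replicate 3. Without tdTneg bulge replicate 2, and likewise without tdT+ SCA-1+ replicate 1, 1 T cell gene was called. The part of any of these lists in the lower S-phase and mitotic values was not tested.

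Between tdT+ and tdTneg SCA-1+ cells, where 0.251% of all genes were called higher and 2.06% lower (2.31% in all), no member was called by edgeR, DESeq2 or any other fit. Of the S-phase genes 11 of 21 were higher, with a median of 0.04, where 53.6% of all genes were higher. At an unadjusted p under 0.05 there was 1, against 5.17% of all genes higher. That gene, Gins2, was at 15.05, 10.2 and 8.65 CPM in tdT+ bulge, 13.1, 15.4 and 15.8 CPM in tdTneg bulge, 13.3, 20.6 and 17.6 CPM in tdT+ SCA-1+ and 9.24 and 11.6 CPM in tdTneg SCA-1+ libraries, with a difference of 0.72 ± 0.31 (SE, adjusted p = 0.311). Ccne1 followed with -1.35 ± 0.69 (SE, adjusted p = 0.427) and Tyms, thymidylate synthase, with 0.36 ± 0.27 (SE, adjusted p = 0.612). Of the mitotic genes 12 of 28 were higher, with a median of -0.04, and none had an unadjusted p under 0.05. Cenpf differed by 0.35 ± 0.28 (SE, adjusted p = 0.662), Mybl2 by -0.67 ± 0.59 (SE, adjusted p = 0.689) and Foxm1 by -0.23 ± 0.27 (SE, adjusted p = 0.794). Without tdT+ SCA-1+ replicate 2 the medians were -0.46 for mitotic and -0.21 for S-phase genes, and without tdTneg SCA-1+ replicate 2 they were 0.19 and 0.30. Without tdTneg SCA-1+ replicate 1 they were -0.23 and -0.26, so that the sign of both medians varied with the library left out.

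**Figure D5:**
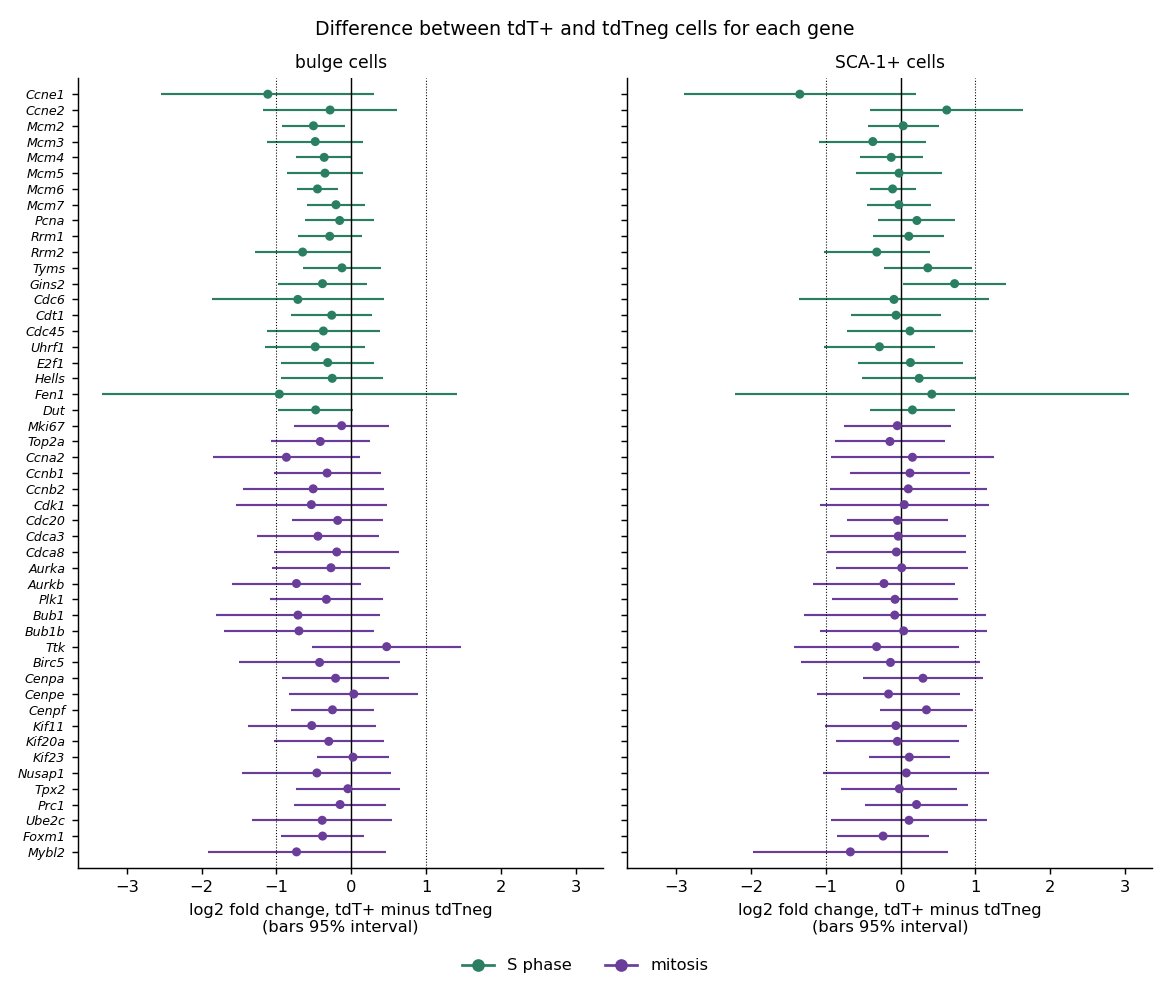
Log2 difference between tdT+ and tdTneg cells (horizontal axis) for the 49 genes, in bulge cells and in SCA-1+ cells, with 95% intervals. In bulge cells all 21 S-phase genes lie below 0, and in SCA-1+ cells the genes lie on both sides of 0.

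Whether tdT status counted for more in one population than in the other was tested as an interaction. No member was called by edgeR, DESeq2 or any other fit, where 0.389% of all genes were called. The median of the interaction was 0.40 for the S-phase genes, 20 of 21 above 0, and 0.33 for the mitotic genes, 26 of 28 above 0, where 52.5% of all genes were above 0. Gins2 was the 1 member with an unadjusted p under 0.05 (4.77% of all genes were higher at that p), with 1.11 ± 0.41 (SE, adjusted p = 0.302). Single libraries moved both medians. Without tdT+ SCA-1+ replicate 2 the mitotic median was -0.10 with 8 of 28 above 0 and the S-phase median 0.09 with 15 of 21 above 0. Without tdTneg SCA-1+ replicate 1 the medians were 0.11 and 0.20, without tdTneg SCA-1+ replicate 2 they were 0.55 and 0.68, and without the library labelled tdT+ bulge replicate 2 they were 0.60 and 0.35. The comparisons within tdT+ cells, within tdTneg cells and between tdT groups share libraries, so their values are not independent of one another.

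The other genes of both programmes were followed in lists named for their function. Of 55 further mitosis genes, 52 were higher in SCA-1+ than in bulge cells, with a median of 0.78, 24 passed the adjusted p (8.88% of all genes did) and 10 were called (4.77% of all genes). The 10 calls became 19 without the library labelled tdT+ bulge replicate 2, 16 without tdT+ SCA-1+ replicate 3, 6 without tdTneg bulge replicate 2, 5 without tdT+ SCA-1+ replicate 2 or tdTneg SCA-1+ replicate 2, 13 with DESeq2, 7 with the replicate block and 2 with limma voom and library weights, while the number that was higher was 52 in each of these fits. Haspin, a histone H3 kinase of mitosis, had a log2 difference of 2.06. It lies within the span of Itgae on the other strand, so that reads of both cannot be told apart. The difference of Kif2c, a microtubule depolymerizing kinesin, was 1.25 and that of Anln, a scaffold of the cytokinetic ring, 1.22. With each library left out Haspin was called in 11 of 11 fits, Anln in 10 and Kif2c in 5, and Kif2c was not called with the replicate block. Of 40 further replication genes, 30 were higher, with a median of 0.23, and 1 was called. That gene was Dbf4, the activating subunit of the kinase that fires origins, with a difference of 1.14 ± 0.29 (SE, adjusted p = 0.0212). Its call was lost without tdT+ SCA-1+ replicate 2 or either tdTneg SCA-1+ library, and with limma voom and library weights. The adjusted p reached 0.0883. Of 17 E2F and MuvB factors, 12 were higher, with a median of 0.21, and E2f7, a repressor of the E2F programme, was called at 1.17 (adjusted p = 0.0228). That call was lost without tdTneg bulge replicate 3, without either tdTneg SCA-1+ library, and with limma voom and library weights. Of 11 checkpoint genes, 9 were higher, with a median of 0.33. Wee1, the kinase that holds Cdk1 inactive, differed by 1.16 (adjusted p = 0.000789) and Cdc25c, the phosphatase that releases it, by 1.10 (adjusted p = 0.0419). Both were called, Wee1 in 11 of 11 fits with 1 library left out and Cdc25c in 1. Wee1 lies within the span of 1600010M07Rik on the other strand, which was at 0.964 CPM at most. Between tdT+ and tdTneg bulge cells, 39 of the 40 further replication genes and 48 of the 55 further mitosis genes were lower in tdT+ cells, with medians of -0.32 and -0.26. With each library left out the replication median ran from -0.37 to -0.22. The mitosis median ran from -0.53, without the library labelled tdT+ bulge replicate 2, to -0.13 with 15 genes higher, without tdT+ bulge replicate 3, and was -0.39 without tdTneg bulge replicate 2. None was called by edgeR or by DESeq2. At an unadjusted p under 0.05 there were 4 of the replication genes, all lower, and 1 of the mitosis genes, which was higher.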

How the data were processed

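The deposited files hold counts per gene as whole numbers without normalization, which the authors made with STAR and featureCounts from mm10 and Ensembl 96. The strand setting is not given in the sources used here. Each library's group and number were read from its label. A single row that is no Ensembl gene stayed out of totals and tests.

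Counts were fitted with edgeR 4.0.16 in R 4.3.3 (TMM, filterByExpr on the 4 groups, quasi-likelihood test, all 11 libraries in 1 fit, common biological coefficient of variation 0.6075), with Benjamini-Hochberg adjustment over 20307 genes. A call needed an adjusted p under 0.05 with a log2 fold change beyond 1 in either direction. Fold changes are ± SE with 95% intervals. Alternatives were DESeq2 1.42.0, RLE size factors, other filters (at least 10 counts in every library, at least 1 in any), no fold threshold, only the groups compared, a replicate block, limma 3.58.1 voom with library weights, and omission of each library. Scripts were tested on simulated data. Figures used Python 3.11.15 with matplotlib 3.10.9.

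The study counts 3 biological replicates in total over the sorted groups, each of material from 2 mice. This was read as the same mice behind a number in every group, which the labels do not state, and the block rests on that reading. Deviations from the group means correlated with a median of 0.083 over 15 pairs with the same number and -0.023 over 30 others. The members and the 14 lists (4 of cell cycle genes and 10 of markers, with 1 hair matrix gene lacking an ID) were chosen with earlier results of these data known. Values in every library are given for anchors (Mki67, Top2a, Ccnb1, Cdk1, Foxm1, Mybl2, Pcna, Mcm2, Mcm5, Ccne1, Ccne2, E2f1, Rrm2) and for most members picked per comparison. Picked were up to 5 called members in each direction or the 3 with the smallest p. Of these, Ccna2, Aurkb, Bub1b, Tyms and Kif23 are given as log2 differences only, and for the interaction only Gins2 is given. Kif23, Ccnb2 and Cenpe were added after their values were seen. Overlaps and copies (95% identity over at least 100 bases) came from GENCODE M21, and members over 50% were called uncertain. The depth was 17409131 to 46542177 counts per library, and the intervals cover both counting error and the spread between libraries.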

Additional observations from a re-analysis of the deposited data

How the results depend on the processing

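No call on a member between tdT+ and tdTneg cells, or on the interaction, was made under any alternative, and the 28 mitotic genes were higher in SCA-1+ cells in every fit. Numbers of calls moved more. Between the populations the 8 mitotic calls became 19 with no fold threshold, 5 with at least 1 count in any library, 2 with the replicate block and 1 with voom, and 1 to 18 with each library left out. Within tdT+ cells the 7 calls became 15 with DESeq2, 12 with the replicate block, 1 with only the groups compared and 1 with voom, and 1 to 15 with each library left out. Within tdTneg cells the 0 calls became 3 with DESeq2, 3 with only the groups compared, 2 with at least 10 counts in every library and 1 each with at least 1 count and with voom, and 0 to 2 with each library left out. With no fold threshold 4 S-phase genes passed between the populations and 3 within tdT+ cells. The call of Dut within tdTneg cells was 0 with RLE size factors, DESeq2, at least 10 counts, the replicate block or only the groups compared, and 0 to 1 with each library left out. Among the 49 members the replicate block changed no other count of calls. Of the further lists it lost the calls of Kif2c, Knl1 and Sgo1 between the populations, Cdc7 within tdT+ cells and Haspin between tdT+ and tdTneg SCA-1+ cells. The cause of these moves was not tested.

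Of the values of single genes, 817 kept direction and side of the threshold, 84 lost and 28 gained the threshold, and 13 changed sign. Between the populations, Ccne1 was -0.084 with the replicate block and -0.074 with voom, and -0.32 to 0.51 with each library left out. Rrm2 was 0.0079 with RLE size factors and 0.0072 with DESeq2, and -0.22 to 0.15 with each library left out, and Pcna was -0.045 to 0.13. Foxm1 between tdT+ and tdTneg SCA-1+ cells was -0.57 to 0.14. Filters moved the median of all genes between the populations from -0.09 to -0.44 with at least 1 count in any library and to -0.0012 with at least 10 counts in every library. Genes with few counts, such as Fen1 (0 to 60 per library) and Ccne1 (12 to 191), had wide intervals at this depth.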

Other observations

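Haspin was the only gene of the further mitosis list called between tdT+ and tdTneg SCA-1+ cells, with a log2 difference of 1.63 ± 0.33 (SE, edgeR, adjusted p = 0.0335). The call was made in 4 of the 11 fits with 1 library left out and was lost without any 1 of the SCA-1+ libraries or without tdTneg bulge replicate 1 or 3, with an adjusted p of up to 0.42, and also with the replicate block. Haspin was chosen for mention after its values were seen. Haspin was at 1.74 to 4.66 CPM in the 6 bulge libraries, 21.2, 27.1 and 21.9 CPM in tdT+ SCA-1+ and 8.26 and 6.87 CPM in tdTneg SCA-1+ libraries. The gene, at chr11:73135485-73138294 on the minus strand, lies within the span of Itgae (chr11:73090583-73147446), which encodes the integrin αE of resident T cells and is on the other strand. Itgae was at 9.11, 10.4 and 7.33 CPM in tdT+ bulge, 2.11, 1.11 and 0.756 CPM in tdTneg bulge, 85.7, 173 and 169 CPM in tdT+ SCA-1+ and 26.1 and 13.4 CPM in tdTneg SCA-1+ libraries. Both genes had their 3 highest libraries in the tdT+ SCA-1+ group, and the part of Itgae reads in the Haspin counts was not tested.

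The balance of the 2 programmes within a library, taken as the mitotic score minus the S-phase score in log2 units, was -0.50, 0.15 and -0.64 in tdT+ bulge, -0.29, -0.49 and -0.39 in tdTneg bulge, 0.30, 0.35 and 0.0095 in tdT+ SCA-1+ and 0.38 and 0.23 in tdTneg SCA-1+ libraries. Of the bulge libraries, the one labelled tdT+ bulge replicate 2 was the only one above 0, and it is also the tdT+ library in which the row outside the Ensembl genes stood at the level of tdTneg cells and endothelial genes summed to 403 CPM.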
